A study of Mus musculus with 6 samples.

Results

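The genes described here are 8 mouse genes that take up arginine, recycle it, or turn it into nitric oxide, ornithine and polyamines: Slc7a2, Nos2, Gch1, Arg1, Arg2, Ass1, Asl and Odc1. They were picked by function, and every probe set whose annotation names a member and no other gene was used, which gave 15 probe sets for 8 of the 18193 genes measured. A probe set is a group of short probes on the array that reads 1 transcript or several, and 1 further probe set that lists a member beside another gene was left out. RNA levels were read on 6 one-colour Affymetrix arrays, 1 per sample, from macrophages. The arrays labelled Trib1 knockout carried RNA of LPS-treated macrophages from Trib1-deficient mice (n = 2, numbered 1 and 2), and their controls were LPS-treated wild-type macrophages of the same Trib1 series (n = 2, numbered 1 and 2, called Trib1-line wild type here). A separate pair held wild-type macrophages given LPS (n = 1) or medium (n = 1), and the series text says that this pair serves to define LPS-inducible genes. LPS is lipopolysaccharide, a component of the bacterial outer membrane that macrophages sense through a Toll-like receptor. No LPS dose, time, strain, age, sex or tissue of origin is given in the sources used here, nor is the nature of the Trib1 deletion. Whether the 2 arrays of a genotype represent different mice is not stated, so p-values cover the spread between these particular samples, which may be technical.

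Arginine is a branch point of macrophage metabolism. The cationic amino acid transporter Slc7a2 brings it into the cell, where inducible nitric oxide synthase (Nos2) turns it into nitric oxide and citrulline with tetrahydrobiopterin as cofactor, and Gch1 catalyses the first step of making that cofactor. Ass1 and Asl rebuild arginine from citrulline. The arginases, cytosolic Arg1 and mitochondrial Arg2, instead split arginine into urea and ornithine, and Odc1 turns ornithine into putrescine, the first polyamine. Nos2 is a classical LPS-induced gene and Arg1 a classical marker of alternatively activated mouse macrophages, and C/EBP-beta, a transcription factor of the family that Trib1 helps to degrade, is known to drive Arg1.

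All values below are scaled intensities: each deposited array was brought to the same trimmed mean, and values under a floor of 29.9 were treated as the floor before taking log2. Intensities of different probe sets are not comparable with each other, so each is read only across arrays. All 11 macrophage markers with a probe set, among them Adgre1, Csf1r and Cd68, were above the floor on all 6 arrays. Both arrays of the LPS pair had a female pattern (Xist at 859.0 with LPS and 850.8 with medium, Eif2s3y under the floor) and the 4 Trib1-line arrays a male one (Xist between 58.2 and 120.4, Eif2s3y between 218.8 and 534.2). Differences between the medium array and the Trib1-line arrays therefore cannot be told apart from sex or from the separate pair. The 3'/5' ratio of the actin control probes lay between 1.05 and 1.12 on all 6 arrays. Trib1 itself measured 88.1 and 20.9 on the arrays labelled knockout, against 17.9 and 17.5 on Trib1-line wild type (floor 29.9). In the LPS pair the same probe set read 189.3 with LPS, against 383.5 with medium. The second Trib1 probe set measured 32.3 and 38.7 on knockout arrays, against 20.2 and 63.0 on Trib1-line wild type. In the pair it read 29.3 with LPS, against 37.1 with medium. The place of these probe sets relative to the deleted part is not given, so they do not check the labels and genotypes are given as labelled.

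With LPS, the inducible nitric oxide synthase gene and the arginine transporter gene were far higher than with medium, Arg2 was higher and Arg1 lower. On the probe sets read here, the genes that rebuild arginine differed little or were near the floor. Of the 7 members above the floor in the LPS pair, Nos2 and Slc7a2 were at least 4-fold higher with LPS and none was 4-fold lower. Over all genes measured there, 1.21% were at least 4-fold higher and 0.642% at least 4-fold lower. Taken over those members the median log2 ratio was 1.24, beside -0.11 over all 13705 genes. By 2-fold, 4 of the 7 were higher (5.4% of genes) and 1 lower (6.7% of genes). Each condition has 1 array, so the error of the ratio cannot be estimated from this pair. The 5 LPS arrays together give a fuller view: Nos2 and Slc7a2 were at least 4-fold above medium on each of them, which held for 0.282% of genes, and no member was 4-fold below medium on each of them (0.141% of genes).

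**Figure D1:**
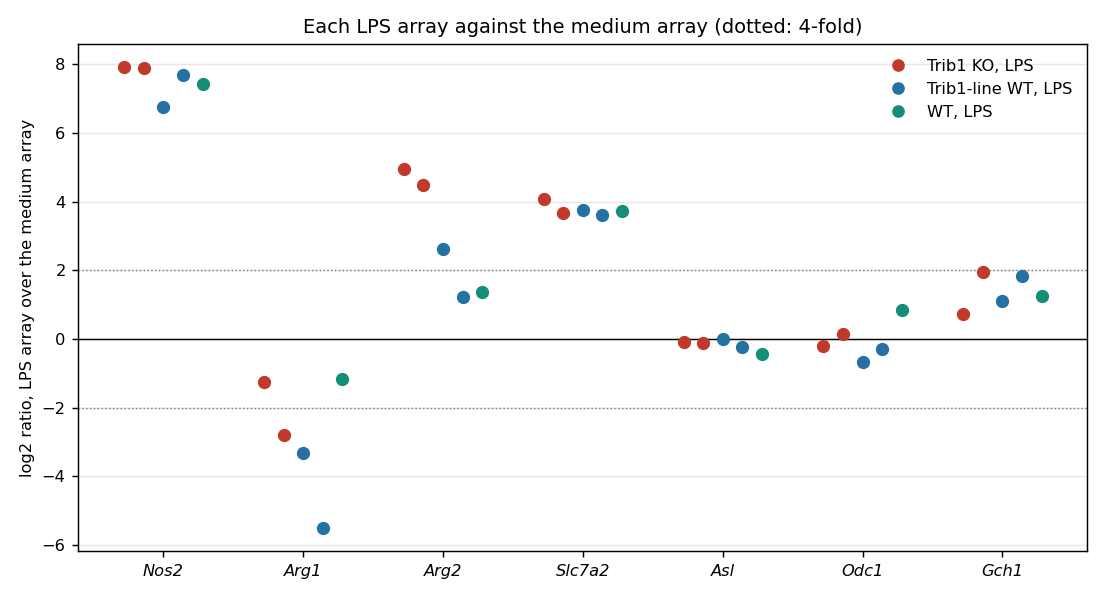
Log2 ratio of each of the 5 LPS arrays over the single medium array for the 7 members above the floor on all arrays, read on the main probe set of each. Red points are arrays labelled Trib1 knockout, blue Trib1-line wild type and green the wild type of the LPS pair, and dotted lines mark 4-fold. Nos2 and Slc7a2 lie above the upper dotted line on all 5 arrays, Arg1 lies below 0 on all 5, and Arg2 is highest on the 2 knockout arrays.

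Between genotypes after LPS, both arginase genes were higher on the arrays labelled Trib1 knockout, Arg2 by 6.97-fold and Arg1 by 5.22-fold, while Slc7a2, Gch1, Asl and Ass1 overlapped between genotypes on their main probe sets. None of this passed the test across the whole array. Of the 15 member probe sets, limma called 0 higher and 0 lower at a Benjamini-Hochberg adjusted p under 0.05, as it did for all 29078 probe sets tested (0% in each direction). At an unadjusted p under 0.05, 3 of the 15 were higher (Arg1 and both probe sets of Arg2) and 0 lower, where 2.28% of all probe sets were higher and 2.71% lower. On the main probe set of each gene, which is the one with the highest mean over the 6 arrays, 4 of 8 members (Nos2, Arg1, Arg2, Odc1) had both knockout arrays above both Trib1-line wild-type arrays. That pattern was common, at 16.9% of genes, and 15.7% had the opposite pattern, which 0 of the 8 showed. Only Nos2 and Arg2 had both knockout arrays above all 3 wild-type LPS arrays, the one of the LPS pair included (11.7% of genes), and none had both below all 3 (8.27%). An exact two-sided permutation test on 2 and 2 arrays has a smallest p of 0.333 and was not used.

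**Figure D2:**
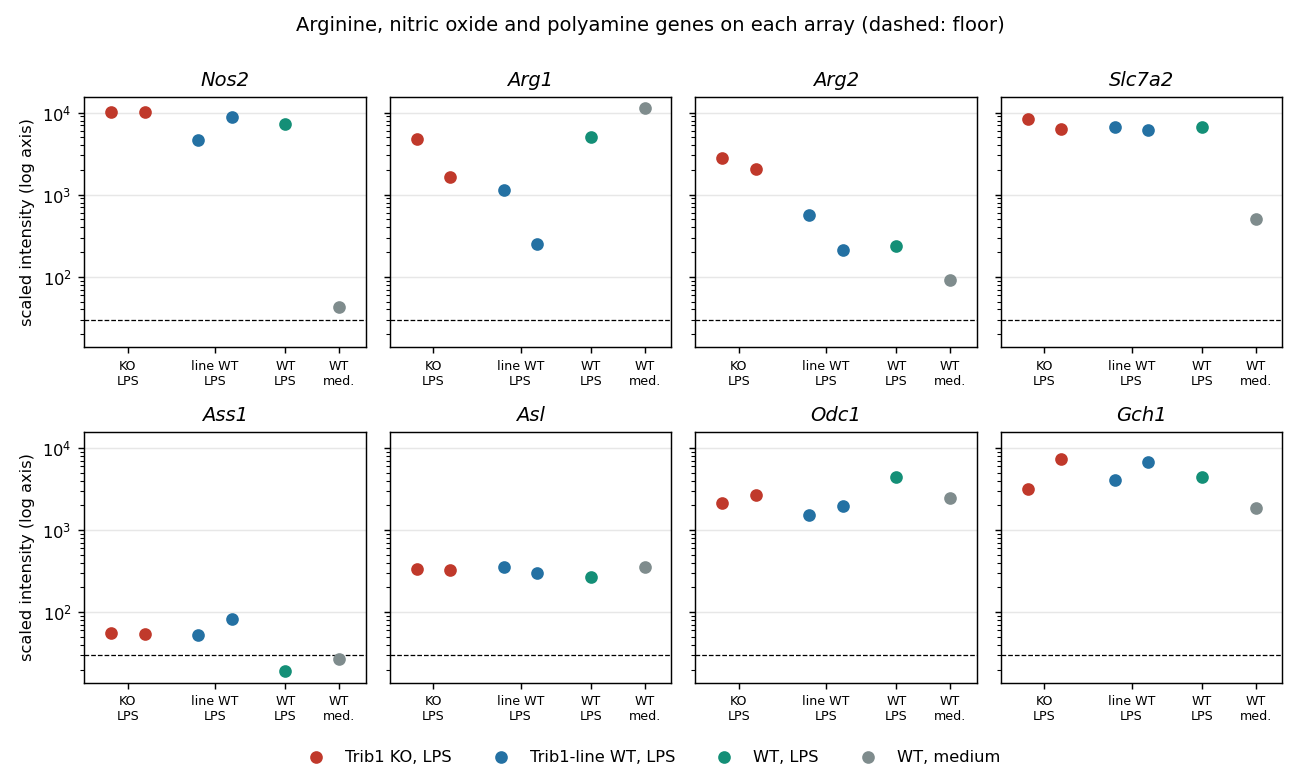
Scaled intensity of the main probe set of each member on each array, on a log axis, with 1 point per array and the floor as a dashed line. From left to right stand the 2 arrays labelled Trib1 knockout with LPS, the 2 Trib1-line wild-type arrays with LPS, and the wild-type LPS and medium arrays of the LPS pair. The 2 knockout arrays of Arg2 stand above every other array, whereas for Arg1 the separate wild-type array with LPS, at 5057, stands above both.

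Slc7a2, the transporter that supplies arginine to the cell, has 4 probe sets. On the main one, 1426008_a_at, it measured 8364 and 6361 on the arrays labelled Trib1 knockout, against 6732 and 6116 on Trib1-line wild type. In the LPS pair it measured 6679 with LPS, against 501.2 with medium, a 13.3-fold difference. The 5 LPS arrays thus stood close together, 12.2 to 16.7-fold above medium, and the genotypes overlapped. The log2 difference between genotypes was 0.18 (SE 0.20, 95% interval -0.31 to 0.68, n = 2 per genotype; limma, adjusted p = 0.999).

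The other Slc7a2 probe sets were 13.7-fold (1422648_at), 12.4-fold (1450703_at) and 8.47-fold (1436555_at) higher with LPS than with medium. For 1436555_at the values were 3579 and 2715 on knockout arrays, against 4107 and 4387 on Trib1-line wild type, so both knockout arrays lay below both wild types. Its log2 difference was -0.45 (SE 0.20, 95% interval -0.93 to 0.04; limma, adjusted p = 0.999), while the main probe set ran the other way. Of the 15 member probe sets it was 1 with this arrangement, which 16.3% of all probe sets tested had. The transcripts that each probe set reads are not given in the sources used here.

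Nos2, which makes nitric oxide in activated macrophages, has 1 probe set, 1420393_at. It measured 10295 and 10048 on the arrays labelled Trib1 knockout, against 4615 and 8729 on Trib1-line wild type. The separate LPS pair gave 7251 with LPS, against 42.6 with medium, close to the floor. The knockout arrays were nearly equal and above all 3 wild-type LPS arrays, but the lower knockout value was only 1.15-fold above the highest of them. The 2 Trib1-line wild types differed from each other by 1.89-fold, more than the 1.60-fold difference between genotypes. The log2 difference was 0.68 (SE 0.31, 95% interval -0.10 to 1.46, n = 2 per genotype; limma, adjusted p = 0.999). Without wild type 1 it was 0.22 and without wild type 2 it was 1.14. Against medium, the 5 LPS arrays lay between 108.4 and 241.7-fold higher.

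The LPS response could be tested only with a borrowed spread, and whether it passed differed between the fits tried. Why they differed was not tested. With the 3 wild-type LPS arrays together against the lone medium array, which is then assumed to vary like them, Nos2 was higher with LPS by 7.28 on the log2 scale (SE 0.39; limma, adjusted p = 0.00302, n = 3 and 1) and Slc7a2 by 3.70 (SE 0.27; limma, adjusted p = 0.00954, n = 3 and 1). That fit called 0.158% of all probe sets higher and 0.0106% lower. With the LPS pair alone in a fit of all 4 groups, which takes its spread from the Trib1-line arrays, the differences were 7.41 for Nos2 (SE 0.49; limma, unadjusted p = 0.000115, adjusted p = 0.259) and 3.74 for Slc7a2 (SE 0.27; limma, unadjusted p = 0.000156, adjusted p = 0.283). This second fit, chosen after seeing the data, called 0% of the 30826 probe sets in either direction, with 2329 at an unadjusted p under 0.05. Of the 3 LPS arrays in the first fit, 2 belong to the Trib1 line, so line and sex cannot be told apart there from LPS. The Slc7a2 values are those of its main probe set. Its probe set 1436555_at, at 2.57 in the first fit and 3.08 in the second, passed in neither. In the first fit 1422648_at was at 3.58 and 1450703_at at 3.70.

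Gch1, which starts the synthesis of the cofactor of nitric oxide synthase, has 2 probe sets. The main one, 1420499_at, measured 3127 and 7265 on the arrays labelled Trib1 knockout, against 4021 and 6729 on Trib1-line wild type. The LPS pair read 4419 with LPS, against 1877 with medium. Every LPS array lay above medium, by 1.67 to 3.87-fold, short of 4-fold. The genotypes overlapped fully, and on both sides the array numbered 2 was the higher one. The log2 difference between genotypes was -0.13 (SE 0.45, 95% interval -1.24 to 0.99, n = 2 per genotype; limma, adjusted p = 0.999). The second probe set, 1429692_s_at, measured 335.9 with LPS, against 334.0 with medium, in the LPS pair. On the Trib1-line arrays it lay above medium as the main one did, at 387.9 and 978.2 on knockout arrays, against 626.8 and 971.9 on wild type. A suffix of _s_at marks probes shared by several transcripts.

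Promoter records were matched for 3 of the 8 members, Ass1, Gch1 and Odc1, in RefSeq (GRCm38.p6). The window of Gch1 is shown because this gene was higher on all 5 LPS arrays, and that of Odc1 beside it because its main probe set was not; Odc1 on 1427364_a_at was, by 1.06 to 1.93-fold. Capitals mark matches to 6 motifs searched on both strands in the 250 bases before the transcript start: TTNNGNAA for C/EBP, GGGANTTTC for kappa B, TATAAA for the TATA box, GAAANNGAA for the interferon response, CACGTG for the E-box and TGANTCA for AP-1.
Gch1, chr14:47189414-47189663, minus strand: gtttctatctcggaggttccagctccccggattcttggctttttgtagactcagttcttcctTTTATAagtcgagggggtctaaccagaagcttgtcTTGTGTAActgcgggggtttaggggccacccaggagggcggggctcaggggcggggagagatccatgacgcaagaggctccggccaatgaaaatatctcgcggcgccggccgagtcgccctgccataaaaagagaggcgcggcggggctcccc
Odc1, chr12:17544623-17544872, plus strand: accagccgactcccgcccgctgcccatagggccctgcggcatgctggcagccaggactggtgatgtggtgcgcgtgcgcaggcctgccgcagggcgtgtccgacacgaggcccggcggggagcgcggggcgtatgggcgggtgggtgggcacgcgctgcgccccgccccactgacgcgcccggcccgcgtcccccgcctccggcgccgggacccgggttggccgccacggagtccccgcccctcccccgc

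The Gch1 window held 1 match to the C/EBP letters, TTGTGTAA, which starts 153 bases before the transcript start. It also held the TATA letters on the opposite strand, 188 to 183 bases before the start, and the matches did not overlap. The C/EBP letters occur in 36.8% of the 32851 promoter windows and the TATA letters in 12.4%. The Odc1 window held none of the 6 motifs, and the Ass1 window held 1 E-box match, a motif present in 6.02% of windows. The GC content was 59.2% for Gch1 and 80.0% for Odc1. A match describes letters and does not show binding.

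Arg2, the mitochondrial arginase, gave the smallest p among the members. Its main probe set, 1418847_at, measured 2807 and 2055 on the arrays labelled Trib1 knockout, against 559.9 and 211.9 on Trib1-line wild type. In the LPS pair it measured 237.5 with LPS, against 91.5 with medium. Both knockout arrays stood above every wild-type array, the lower of them 3.67-fold above the highest wild-type LPS array. The log2 difference between genotypes was 2.80 (SE 0.47, 95% interval 1.64 to 3.97, n = 2 per genotype; limma, unadjusted p = 0.00121, adjusted p = 0.766). This p was the 46th smallest of the 29078 probe sets tested.

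The second probe set of Arg2, 1438841_s_at, had the same arrangement. It measured 1807 and 1359 on knockout arrays, against 329.9 and 141.9 on Trib1-line wild type. The log2 difference was 2.86 (SE 0.43, 95% interval 1.80 to 3.91, n = 2 per genotype; limma, unadjusted p = 0.000663, adjusted p = 0.766), the 23rd smallest p. The pair of wild-type arrays gave 118.5 with LPS, against 15.9 with medium, under the floor, so it was at least 3.96-fold higher.

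The call on Arg2 was not the same in every fit that left out a single array. Such a fit leaves 1 array in a genotype, which is assumed to vary like the others, so only the differences are given. On the main probe set of Arg2 the log2 difference was 3.50 without wild type 1 and 2.58 without knockout 1. It was 3.03 without knockout 2 and 2.10 without wild type 2. With the wild type of the LPS pair added to the Trib1-line wild types the difference was 2.98 (limma, adjusted p = 0.436). Arg2 was higher on knockout arrays in each of these 5 fits.

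Arg1, the cytosolic arginase, has 1 probe set, 1419549_at. It measured 4767 and 1626 on the arrays labelled Trib1 knockout, against 1135 and 250.1 on Trib1-line wild type. In the LPS pair it measured 5057 with LPS, against 11349 with medium. Medium was the highest of the 6 arrays, and with LPS Arg1 was 2.24-fold lower in the pair. It was 2.38 and 6.98-fold below medium on the knockout arrays, and 9.998 and 45.4-fold below it on Trib1-line wild type.

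Arg1 varied widely within each genotype: the 2 knockout arrays differed by 2.93-fold and the 2 Trib1-line wild types by 4.54-fold. The lower knockout array was 1.43-fold above the higher Trib1-line wild type, so the genotypes did not overlap. The log2 difference was 2.39 (SE 0.81, 95% interval 0.37 to 4.40, n = 2 per genotype; limma, unadjusted p = 0.0277, adjusted p = 0.951). The separate wild-type array with LPS stood above both knockout arrays, and with it added to the wild types the difference was 1.30 (limma, adjusted p = 0.999). The difference was 1.29 without wild type 2, 1.61 without knockout 1, 3.16 without knockout 2 and 3.48 without wild type 1, all short of the threshold (limma, lowest adjusted p = 0.0552).

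**Figure D3:**
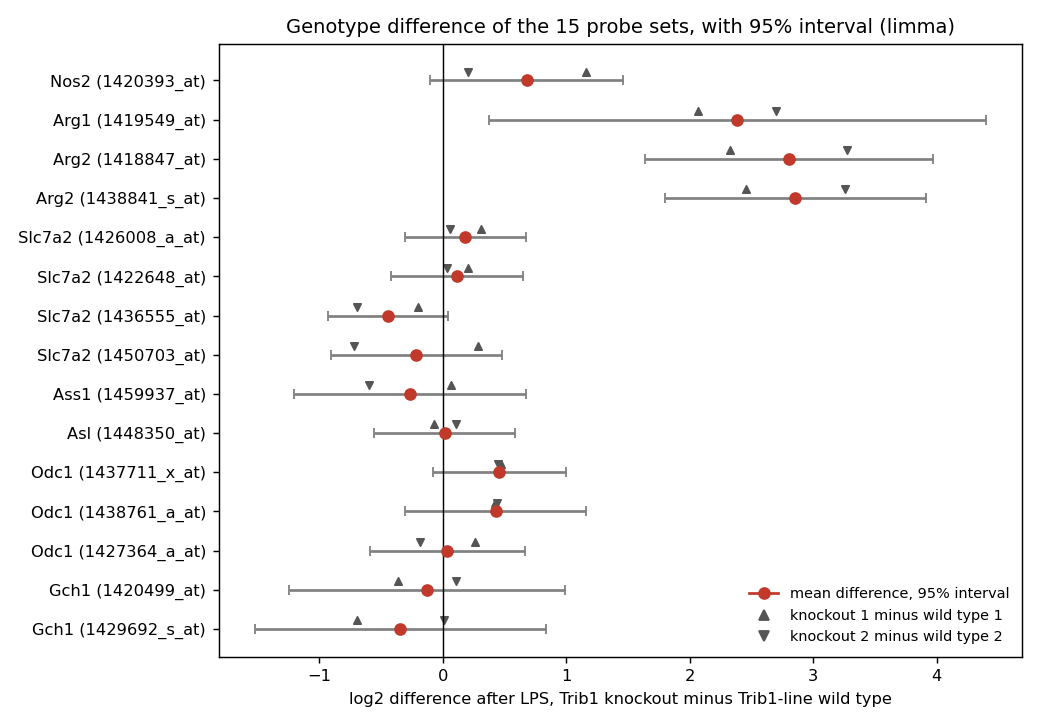
Log2 difference after LPS, arrays labelled Trib1 knockout minus Trib1-line wild type, for each of the 15 member probe sets. Red points with grey bars give the mean difference and its 95% interval from limma (n = 2 per genotype, not adjusted for the number of tests), and triangles give the differences of same-numbered arrays. The intervals of Arg1 and of both Arg2 probe sets lie above 0, and those of the other 12 probe sets include 0.

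Markers of other cells also differed in level between genotypes, and none passed limma at an adjusted p under 0.05. The 10 neutrophil markers with a probe set summed to 21206 and 10604 on knockout arrays, against 3749 and 3226 on Trib1-line wild type, and 10 and 8 of them were above the floor, against 7 and 7. Most of that sum was S100a8 (8853 and 7314, against 1251 and 1238) and S100a9 (6906 and 205.6, against values under the floor), which encode the subunits of calprotectin. Mmp8, the neutrophil collagenase gene, measured 2587 and 713.6 on knockout arrays, against 212.1 and 121.8, and Camp, which encodes an antimicrobial peptide, 219.9 and 66.9, against values under the floor. Of the other granule genes, Ngp measured 219.4 and 68.7, against 99.9 and 80.0, Ltf 40.2 and a value under the floor, against 87.0 and 87.2, and Mpo and Elane lay between 64.4 and 95.5 on these 4 arrays. Csf3r measured 2170 and 2043, against 1930 and 1494, and Cxcr2 32.6 and a value under the floor, against values under the floor. Of the 9 neutrophil markers tested, 5 had both knockout arrays above both Trib1-line wild types (16.9% of genes) and 1 had both below (15.7%). The 12 mesothelial and stromal markers summed to 14377 and 16676 on knockout arrays, against 7416 and 6437. Above the floor were 9 and 11 of them, against 9 and 8. Most of that sum was Pdpn (12532 and 12270, against 6118 and 4849). In the LPS pair Pdpn measured 4290 with LPS, against 1790 with medium. Col1a1 measured 239.2 and 861.8, against 146.8 and 140.3, while Msln, Upk3b, Wt1, Krt19 and Lrrn4 did not exceed 58.0 on these 4 arrays. Of the 10 tested, 5 had both knockout arrays above both Trib1-line wild types (16.9% of genes) and 1 had both below (15.7%). The 11 eosinophil and mast cell markers summed to 288.8 and 412.9 on knockout arrays, against 827.8 and 1221. Above the floor were 4 and 6 of them, against 5 and 10. The mast cell genes Cpa3 (47.8 and 117.8, against 297.1 and 366.8) and Tpsb2 (39.7 and 34.6, against 134.2 and 148.4) were lower on knockout arrays. Kit overlapped (64.3 and 31.7, against 13.7 and 70.5). The eosinophil genes Epx, Prg2, Il5ra and Siglecf did not exceed 48.7 on these 4 arrays. Of the 7 tested, 5 had both knockout arrays below both Trib1-line wild types (15.7% of genes) and 0 had both above (16.9%). Macrophage markers summed to 100272 and 105258 on knockout arrays, against 82042 and 93579. In RNA from a mixed cell sample, fewer cells of a type and less RNA per cell cannot be told apart, and the part of any of these markers in the arginase differences was not tested.

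Ass1, which joins citrulline to aspartate on the way back to arginine, was near the floor on the 1 probe set read here, 1459937_at. Whether another probe set would read Ass1 higher was not tested. It measured 55.3 and 54.4 on the arrays labelled Trib1 knockout, against 52.7 and 82.2 on Trib1-line wild type. The LPS pair read 19.1 with LPS, against 26.6 with medium, both under the floor, so no ratio is given. The genotypes overlapped, with a log2 difference of -0.26 (SE 0.38, 95% interval -1.20 to 0.68; limma, adjusted p = 0.999).

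Asl, which releases arginine in the following step, had the narrowest range over the 6 arrays of the members' main probe sets. On 1448350_at it measured 338.6 and 326.2 on knockout arrays, against 355.2 and 303.0 on Trib1-line wild type. The separate LPS pair gave 265.1 with LPS, against 357.0 with medium. All 5 LPS arrays lay between 0.743 and 0.995 of medium. The genotype difference was 0.02 on the log2 scale (SE 0.23, 95% interval -0.55 to 0.59; limma, adjusted p = 0.999), an interval that spans differences of either sign.

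Odc1, the first enzyme of polyamine synthesis, has 3 probe sets. The main one, 1437711_x_at, measured 2125 and 2696 on the arrays labelled Trib1 knockout, against 1535 and 1975 on Trib1-line wild type. In the LPS pair it measured 4385 with LPS, against 2440 with medium. The LPS array of the pair was the highest of the 6 arrays, 1.80-fold above medium, whereas both Trib1-line wild types lay below medium. Both knockout arrays lay above both Trib1-line wild types, by 1.08-fold at the closest, and below the LPS array of the pair. The log2 difference between genotypes was 0.46 (SE 0.22, 95% interval -0.08 to 1.00; limma, adjusted p = 0.999). It was 0.43 on the second probe set and 0.04 on the third, and the genotypes overlapped on both. A suffix of _x_at marks probes that may also bind other transcripts.

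Beyond the members, 50 further genes of arginine transport, nitric oxide control, tetrahydrobiopterin, the urea cycle and polyamines were read, and 43 had a probe set of their own. Smox, the spermine oxidase that turns spermine back into spermidine, had the smallest p among them between genotypes. It measured 1911 and 1104 on knockout arrays, against 418.1 and 679.5 on Trib1-line wild type (log2 difference 1.45, SE 0.36; limma, unadjusted p = 0.00765, adjusted p = 0.885). Slc3a2, the heavy chain shared by several amino acid transporters, measured 8983 and 9172 on knockout arrays, against 5148 and 7267 (log2 difference 0.57, SE 0.21; limma, adjusted p = 0.967). The next 2 were Sat2, a diamine acetyltransferase family gene (log2 difference -1.003), and Srm, spermidine synthase (0.52), each with an adjusted p of 0.999 by limma. None of the 41 genes tested passed in either direction, and the median log2 difference was -0.01, beside 0.01 over all 13885 genes. At an unadjusted p under 0.05 (limma), 2 were higher and 0 lower, where 2.28% of all probe sets were higher and 2.71% lower. By arrangement, 9 of the 41 had both knockout arrays above both Trib1-line wild types (16.9% of genes) and 6 had both below (15.7%).

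With LPS against medium, 0 of the 39 pathway genes above the floor were at least 4-fold higher and 0 lower, with a median log2 ratio of -0.15 beside -0.11 over all genes. The 4 furthest from 0 were all lower with LPS. Pycrl, a pyrroline-5-carboxylate reductase of proline synthesis, measured 45.4 with LPS, against 130.8 with medium, a log2 ratio of -1.53. Gatm, which uses arginine for creatine synthesis, measured 424.8 with LPS, against 1220 with medium, a log2 ratio of -1.52. Azin2, a relative of ornithine decarboxylase, had a log2 ratio of -0.94 and Slc25a15, the mitochondrial ornithine carrier, -0.87. Nostrin, a regulator of nitric oxide synthase trafficking named here after its values were seen, set the LPS pair apart: of the 49 member and pathway genes above the floor on any array it was the 1 with both arrays of the pair at least 2-fold above all 4 Trib1-line arrays (0.672% of genes), and 0 were below by that rule (0.333%). It measured 62.4 and 38.2 on knockout arrays and was under the floor on both Trib1-line wild types, against 128.0 with LPS and 150.1 with medium in the pair. On the Trib1-line wild types Gatm measured 1058 and 1061, near medium, so its difference in the LPS pair was not seen there. The arrays labelled Trib1 knockout gave 976.4 and 460.5 for Gatm, the second 2.65-fold below medium. Of the 9 urea cycle, ornithine and proline genes above the floor, the median log2 ratio was -0.76, the lowest of the 5 roles.

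**Figure D4:**
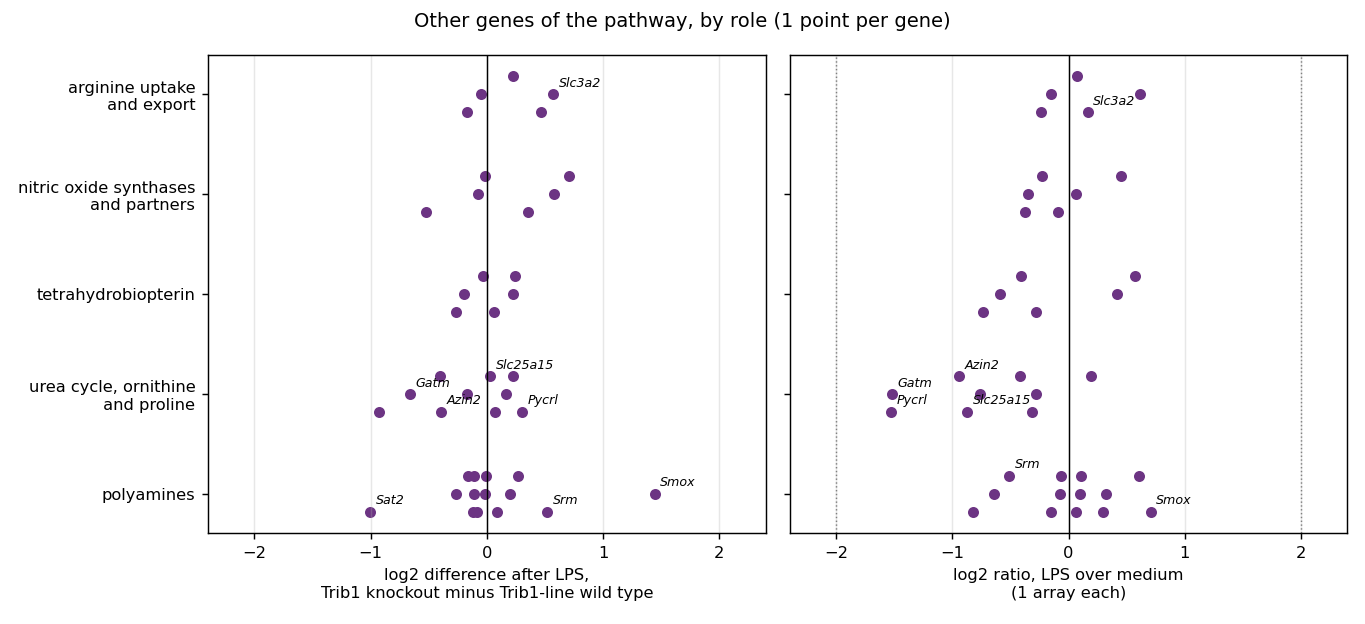
Other genes of the pathway, 1 point per gene on its main probe set, in rows by role. The left panel gives the log2 difference after LPS, arrays labelled Trib1 knockout minus Trib1-line wild type, and the right panel the log2 ratio of LPS over medium, with 4-fold as dotted lines. Smox lies furthest to the right between genotypes, at 1.45, and Pycrl and Gatm lie furthest to the left with LPS, at -1.53 and -1.52, inside the dotted line.

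Patterns over the 6 arrays were compared by Pearson correlation of log2 values, as a description: the 6 points share arrays, scaling and, for genes that differ in the medium array, that 1 array. Candidates were genes above the floor on at least 2 arrays whose log2 range was at least 0.5 of that of the member, so their number went from 106 for Nos2 to 14240 for Asl. Among these, the genes most like Nos2 were Il1b (r = 0.997), Il6 (r = 0.993) and Cxcl1 (r = 0.992), all cytokine or chemokine genes. Those most like Slc7a2 were Sdc4, Slc44a1 and Marcksl1, with r between 0.993 and 0.997. For Arg1 they were Ccr1 (r = 0.97), a chemokine receptor gene that measured 3315 and 1605 on knockout arrays, against 1062 and 661.7 on Trib1-line wild type, then Adssl1 (0.96) and Irf2bpl (0.94). For Arg2 they were Mmp9 (r = 0.98), a matrix metalloprotease gene at 501.8 and 327.7 on knockout arrays, against 161.2 and 93.9, then Irak3 (0.97), a brake on Toll-like receptor signalling, and Pdpn (0.97), which encodes podoplanin. The genes most like Odc1 were Zbtb40 (r = 0.98), Kdm6b (0.97) and Adgrl2 (0.97), and those most like Gch1 were Il15ra (0.99), Slc4a4 (0.99) and Peli1 (0.98). Those most like Asl were Ostm1, Pcmtd2 and Rab1b, and those most like Ass1 were Foxp2, Krtap28-13 and Zfp444. Among the members themselves Nos2 and Slc7a2 were the most alike (r = 0.99), and Arg1 and Arg2, both higher on the knockout arrays, had r = -0.08, with medium the highest array for Arg1 and the lowest for Arg2.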

How the data were processed

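The authors deposited 1 linear intensity per probe set and array, computed with MAS5 per the submitters' processing notes; its version and scaling target are not given in the sources used here. Their trimmed means (lowest and highest 2% left out) were 500.0 for the LPS pair and between 95.5 and 106.6 on the Trib1-line arrays. Each array was scaled to a trimmed mean of 233.9. The 64 control probe sets were left out. The floor of 29.9 is the pooled 40th percentile, and between 57.9% and 63.0% of probe sets lay above it. Precision is limited by how few arrays there are.

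LPS and medium were compared as ratios, with a rule of 4-fold. Genotypes were tested by limma (version 3.58.1, R 4.3.3; trended prior, two-sided, Benjamini-Hochberg over the 29078 probe sets that exceeded the floor on 2 or more of the 4 arrays, threshold 0.05), a procedure first tried on simulated data. Genes were named by fixed rules: all members, pathway genes past the rule or the test or else the 4 furthest from 0 (LPS) or with the smallest p (genotype), and for each member the 3 genes with the highest correlation, among genes above the floor on at least 2 arrays whose log2 range is at least 0.5 of that of the member. Members and lists were chosen with earlier results of these data known. Marker lists of other cell types (granulocytes, mast cells, lymphocytes, dendritic, mesothelial and stromal cells), of macrophages and of sex were read beside them. Gene names follow the platform annotation, updated through RefSeq identifiers for 34741 of 34945 single-gene probe sets. Alternatives were other scalings, floors, filters and priors, a block by array number, single arrays left out, other LPS arrays, and borrowed-spread fits of LPS against medium.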

Additional observations from a re-analysis of the deposited data

How the results depend on the processing

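With only 2 arrays per genotype and 1 per treatment, the data limit what can be called. The titles give both genotypes the numbers 1 and 2 without saying that they pair arrays. Deviations of same-numbered arrays correlated (r = 0.35 across probe sets). With the number as a block 3 member probe sets were higher, Arg1 (limma, adjusted p = 0.00745) and Arg2 (0.00904 and 0.00844). Of all 29078 probe sets, that fit called 85 higher and 31 lower (0.399% in all), and no other member call changed. Leaving out single arrays gave between 0 and 2 member probe sets higher and 0 lower, beside 5 to 36 higher and 0 to 32 lower over all probe sets. Scalings, floors, the filter and the prior gave 0. With LPS, 4 members were higher and 1 lower by a 2-fold rule, with 2 pathway genes lower (5.4% of genes higher, 6.7% lower). By the 4-fold rule with Trib1-line wild type 1 as the LPS array, 3 members were higher and 1 member and 1 pathway gene lower. With wild type 2, 1 member and 2 pathway genes were lower and 1 pathway gene higher. The share of all genes past the rule with these arrays is not given here, so these counts have no background. These arrays also differ from medium in sex and line. The 4-group fit of the LPS pair, added after seeing the data, called 0 members. The fit of medium against 3 LPS arrays, with each LPS array left out (also added), called 2 to 3 members higher, 0 to 1 lower and 0 to 1 pathway genes lower, beside 52 to 585 probe sets higher and 5 to 561 lower. Leaving out single arrays moved genotype differences near 0 across it: Slc7a2 lay between -0.0125 and 0.38 on the main probe set, -0.098 and 0.33 on 1422648_at and -0.48 and 0.0573 on 1450703_at, Ass1 between -0.58 and 0.0584, Asl between -0.0957 and 0.13, Odc1 on 1427364_a_at between -0.17 and 0.25, and Gch1 between -0.73 and 0.48 on the main probe set and -1.01 and 0.33 on the other. Adding the LPS array of the pair as a further wild type gave 0.12 for Ass1, -0.18 for Odc1 on 1427364_a_at and 0.0638 for Gch1 on 1429692_s_at. The cause was not tested. None of these alternatives changed the sign of the genotype difference for Nos2, Arg1 or Arg2.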

Other observations

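Markers of lymphocytes and dendritic cells also differed in level between arrays. The 9 B cell markers summed to 1263 and 1685 on the arrays labelled Trib1 knockout, against 1709 and 1798 on Trib1-line wild type. The largest part was Cd22, which overlapped (812.0 and 1007, against 1010 and 854.4). Of the 9, 6 had both knockout arrays below both Trib1-line wild types (15.7% of genes), among them Ms4a1 (76.5 and 145.2, against 189.3 and 225.2). None had both above (16.9%). The 12 T and NK cell markers summed to 756.2 and 993.6, against 776.1 and 974.4, with Cd4 and Cd8b1 under the floor on every array. The 8 dendritic cell markers summed to 1737 and 2713, against 3533 and 4814. Most of each sum was Itgax (1244 and 2233, against 3031 and 4055), whereas Zbtb46 overlapped (82.8 and 80.5, against 58.0 and 105.5). Of these 8, 3 had both knockout arrays below both Trib1-line wild types (15.7% of genes) and 0 had both above (16.9%). No gene of these lists passed limma at an adjusted p under 0.05, and their part in the levels of the arginine genes was not tested. The mast cell protease gene Cma1, named after its values were seen, measured 11.5 and 58.3 on knockout arrays, against 175.4 and 286.6 on Trib1-line wild type.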
